A study of Mus musculus with 3 samples.

Results

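The genes of the proteasome were followed in mouse embryonic stem cells treated with tubercidin. They were taken by symbol, as all names of the form Psma, Psmb, Psmc, Psmd, Psme, Psmf or Psmg plus a number, without pseudogenes, and 50 of the 32285 listed genes matched. Of these, 49 encode proteasome subunits, their assembly chaperones or their regulators, and the remaining one, Psmc3ip, encodes a partner of meiotic recombination enzymes and no proteasome subunit. Psmc3ip is therefore given apart. The 49 members comprised 14 constitutive core subunits, 5 tissue-restricted core subunits, 17 subunits of the regulatory particle, 7 assembly chaperones and 6 activators or inhibitors.

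The cells were of E14, an established embryonic stem cell line on a 129/Ola background, kept in serum with leukaemia inhibitory factor on gelatin. Tubercidin, an adenosine analogue that cells phosphorylate and build into nucleic acids, was given at 10 uM for 3 h or 6 h, and the control received an equal volume of its solvent, DMSO, for 6 h. All 3 groups were the same line and medium, and each was 1 droplet library of live, trypsin-detached cells, so that the spread between cultures is not known and no difference below was tested. A solvent control of 3 h is not analysed here, and both treated libraries are set against the same control.

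The proteasome is the main protease of the cytosol and nucleus and degrades proteins tagged with ubiquitin. Its barrel-shaped core particle is built of outer rings of alpha subunits, which gate entry, and inner rings of beta subunits, some of which carry the proteolytic sites. A regulatory particle docks on the core: its lid removes ubiquitin, and the ATPases of its base unfold the substrate and feed it inside. Because each complex holds its subunits in fixed numbers, subunit genes are usually transcribed together, in mammals partly through NFE2L1, a transcription factor held at the endoplasmic reticulum.

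After cell calling, 2031, 2365 and 2926 cells were kept from the control, the 3 h and the 6 h library, and triplets of values below keep this order. The median cell had 48452, 11877 and 8004.5 unique molecular identifiers (UMIs), the tags that count captured RNA molecules. All 9 markers of embryonic stem cells had UMIs in every library, at summed levels of 3810 to 5221 CPM, UMIs of a gene per 1000000 UMIs of its library. Markers of 2-cell-like cells reached 0.932 CPM in sum at most (7 of 8 found), those of feeder fibroblasts 2.19 CPM, those of primitive endoderm 17.8 CPM and those of trophoblast 39.6 CPM. Mitochondrial genes took 2.87% to 3.43% of UMIs, and between 9.31% and 15.9% of UMIs lay outside called cells. Any 2 libraries shared 1 cell barcode, and none was in all 3. All levels below are 3′ end UMI counts summed over the cells of a library and given as CPM, so they are shares of each library and not amounts per cell.

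Promoters show how far the members share regulatory sequence. RefSeq holds a promoter (250 bases before to 50 after the start, GRCm38.p6) for 41 of the 49 members, and each was searched on both strands for 4 motifs: CCGGAAG of ETS factors, CCAAT of NF-Y, TGACNNNGC, the antioxidant response core read by NFE2L factors, and the motif of nuclear respiratory factor 1 (NRF1). The sequences below end before the first annotated exon base and are written 5′ to 3′ on the gene's strand, with motif matches in capitals. They show regulatory particle promoters with the ETS motif, Psmd2 (chr16:20651502-20651651, plus strand), Psmd4 (chr3:95042615-95042764, minus strand) and Psmd11 (chr11:80428465-80428614, plus strand).
Psmd2: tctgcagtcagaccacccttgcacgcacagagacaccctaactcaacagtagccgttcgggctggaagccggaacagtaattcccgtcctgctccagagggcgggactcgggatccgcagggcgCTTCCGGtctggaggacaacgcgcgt
Psmd4: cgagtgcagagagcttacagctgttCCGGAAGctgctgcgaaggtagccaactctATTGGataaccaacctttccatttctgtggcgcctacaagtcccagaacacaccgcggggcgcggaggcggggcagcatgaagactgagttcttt
Psmd11: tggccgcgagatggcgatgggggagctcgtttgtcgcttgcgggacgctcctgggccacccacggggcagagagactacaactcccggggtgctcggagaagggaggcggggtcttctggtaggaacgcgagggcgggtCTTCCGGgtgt

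Core promoters are shown for contrast, Psma3 (chr12:70974473-70974620, plus strand), Psmb4 (chr3:94886962-94887108, minus strand, without a match), Psmb5 (chr14:54618023-54618145, minus strand) and Psmb6 (chr11:70525207-70525356, plus strand). The chaperone Psmg1 (chr16:95990961-95991110, minus strand), one of the members past 2-fold lower at 3 h, closes the set.
Psma3: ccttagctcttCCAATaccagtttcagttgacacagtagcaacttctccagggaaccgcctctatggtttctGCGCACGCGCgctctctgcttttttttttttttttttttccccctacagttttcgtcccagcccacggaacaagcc
Psmb4: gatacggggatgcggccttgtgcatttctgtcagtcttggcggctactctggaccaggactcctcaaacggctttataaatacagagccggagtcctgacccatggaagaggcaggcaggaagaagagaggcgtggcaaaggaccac
Psmb5: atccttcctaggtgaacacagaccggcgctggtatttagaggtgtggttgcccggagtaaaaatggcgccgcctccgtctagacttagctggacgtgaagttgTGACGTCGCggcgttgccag
Psmb6: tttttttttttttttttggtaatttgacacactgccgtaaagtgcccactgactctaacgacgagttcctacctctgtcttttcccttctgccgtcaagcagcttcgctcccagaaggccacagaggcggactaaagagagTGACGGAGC
Psmg1: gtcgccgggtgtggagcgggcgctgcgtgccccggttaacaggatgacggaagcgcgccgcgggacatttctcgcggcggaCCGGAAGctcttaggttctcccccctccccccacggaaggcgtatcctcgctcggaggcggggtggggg

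The ETS motif differed most between the particles. It was in 9 of 14 regulatory particle promoters (64.3%) and 1 of 11 core promoters (9.09%, that of Psma6), beside 9.93% of the 27025 genes with a RefSeq promoter and 24.8% of the 6302 tested genes with one. CCAAT was in 6 of 11 core promoters (54.5%) and 4 of 14 of the regulatory particle (28.6%), beside 41.1% of all genes and 44.4% of the tested genes. The antioxidant core was in 6 of 41 members (14.6%) against 13.99% of all genes and 17.3% of the tested genes, among them Psmb5 and Psmb6 printed above. The NRF1 motif was in 7 of 41 (17.1%), against 5.19% of all genes and 14.04% of the tested genes, a share near the members' own. No match in the printed sequences overlapped one of another motif.

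The 49 members together took 0.965%, 1.03% and 0.988% of UMIs, that is 9646, 10301 and 9875 CPM. As a log2 ratio of sums this was 0.09 at 3 h (95% counting interval 0.09 to 0.10) and 0.03 at 6 h (0.03 to 0.04), so the proteasome's share of the transcriptome was nearly level across the libraries. In UMIs per cell the sum was 498, then 130, then 83.3, alongside the drop in all UMIs, and on that scale each of the 44 members tested was lower in both treated libraries. The median of all genes tested was lower there too, at log2 ratios of -2.27 at 3 h and -2.67 at 6 h. Whether RNA per cell or its capture differed cannot be told apart.

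Single genes were compared as the log2 ratio of CPM + 1 over the 7884 genes whose mean over the libraries reached 10 CPM, of which 44 were members. The interval printed beside such a ratio is the exact 95% counting interval of the ratio without the added 1, and it covers counting error only. Against the control, the median gene stood at -0.27 at 3 h and -0.12 at 6 h, and between the treated libraries at 0.14. The members' medians were -0.07, -0.01 and -0.09 in the same order, and 33 of 44 lay above the median gene at 3 h, 25 at 6 h and 14 at 6 h against 3 h. Other scalings moved the median gene by 0.23 (median of ratios) and 0.19 (TMM) at 3 h and by -0.22 at 6 h against 3 h, with little effect at 6 h against the control. A member's distance from the median gene is thus the steadier value, and it is given where the direction of the plain ratio depends on the scaling.

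Few members passed 2-fold, as did few of all genes. At 3 h, 8 of 44 members were higher by 25% or more and 8 were lower by 20% or more, the same fold in either direction, against 9.89% and 45.4% of all genes, and with median-of-ratios scaling these counts were 15 and 4. At 6 h, 7 were higher and 13 lower by that rule, against 17.1% and 33.4% of all genes. Between 3 h and 6 h, 5 were higher and 10 lower, against 28.0% and 7.75% of all genes, and with median-of-ratios scaling 2 and 21. The shares of all genes in this paragraph are with CPM. With median of ratios they were not counted, and there the median gene stood at -0.04 at 3 h and -0.08 at 6 h against 3 h. Past 2-fold there were no higher members in any comparison, against 0.888%, 2.33% and 1.64% of all genes. The 2-fold lower members were Psmg1 and Psmg3 at 3 h, against 5.54% of all genes, and Psmg3 at 6 h, against 4.41%. With median-of-ratios scaling Psmd7 passed 2-fold higher at 3 h (1.05), and Psmg1 fell short of 2-fold lower there (-0.82, and -0.87 with TMM scaling). None was 2-fold lower at 6 h than at 3 h, against 0.165% of all genes.

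**Figure D1:**
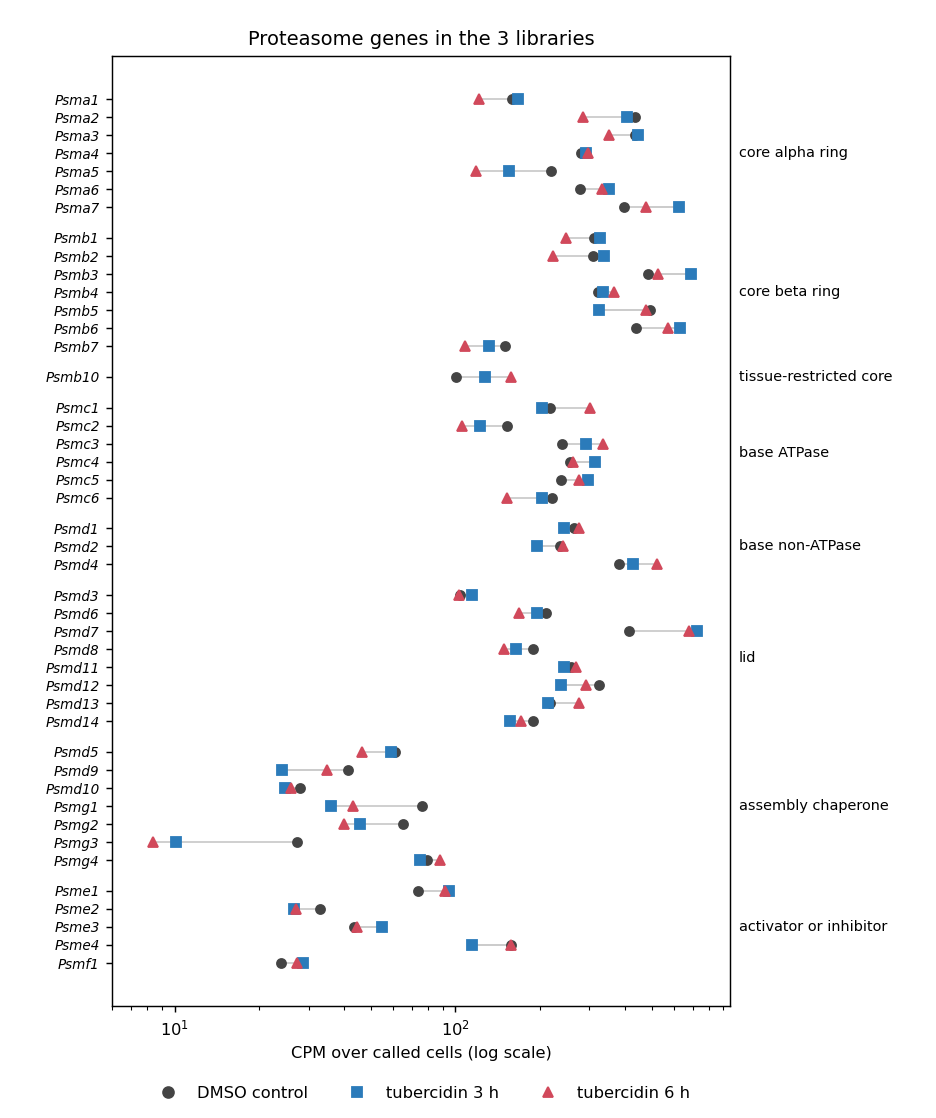
Level of each of the 44 members tested (horizontal log axis, CPM over called cells) in the DMSO control (circles), at 3 h (squares) and at 6 h (triangles) of tubercidin, ordered by role. Psmd7 stands to the right of its control point at both times, and Psmg1, Psmg3 and Psma5 stand to the left of theirs.

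Genes of the alpha ring went in both directions against the control. Psma7, an alpha ring subunit, was at 399, 627 and 476 CPM. Its log2 ratio to the control was 0.65 at 3 h (0.63 to 0.68) and 0.25 at 6 h (0.23 to 0.28), highest in the ring at 3 h. Psma6 was at 278, 353 and 333 CPM, with 0.34 (0.31 to 0.38) and then 0.26 (0.23 to 0.30), highest in the ring at 6 h. Psma5 went the other way at both times. It was at 219, 155 and 119 CPM, or -0.50 (-0.55 to -0.45) and -0.88 (-0.94 to -0.83), 0.23 and 0.76 below the median gene. Between the 2 treated libraries the ring moved together. All 7 alpha genes lay below the median gene at 6 h against 3 h, with a median of -0.38 and a range of -0.52 to 0.03, and their summed level was 2207, 2448 and 1983 CPM.

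The beta ring includes the proteolytic subunits, and these differed in their changes. Psmb6, which carries the caspase-like site, was at 441, 631 and 570 CPM, with log2 ratios of 0.52 (0.49 to 0.54) and 0.37 (0.34 to 0.40). Psmb5, the chymotrypsin-like subunit and the main target of proteasome inhibitors, was at 492, 325 and 477 CPM, lowest in the ring at 3 h with -0.59 (-0.63 to -0.56) and back near the control at 6 h with -0.04 (-0.07 to -0.01). Psmb7, the trypsin-like subunit, was at 150, 132 and 109 CPM, with distances from the median gene of 0.09 at 3 h and -0.34 at 6 h. The catalytic subunits therefore differed in order of libraries: Psmb6 was highest at 3 h, while Psmb5 and Psmb7 were highest in the control, except that the 3 h ratio of Psmb7 turned positive with median-of-ratios or TMM scaling.

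Of the other beta genes, Psmb3 had the most UMIs, and it was at 484, 691 and 524 CPM. Psmb2 was lowest in the ring at 6 h, at 309, 337 and 222 CPM, with 0.12 (0.09 to 0.16) at 3 h and -0.47 (-0.52 to -0.43) at 6 h. The ring's median at 6 h against 3 h was -0.28, with 6 of 7 genes below the median gene and Psmb5 the exception at 0.55 (0.51 to 0.59). Summed over the ring, the level was 2510, 2777 and 2516 CPM. At 6 h the alpha ring thus had less share than in the control while the beta ring was level with it, and the alpha to beta ratio of UMIs was 0.879, 0.882 and 0.788 in the 3 libraries.

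The tissue-restricted core subunits replace constitutive ones in immune, thymic or germ cells, and only Psmb10 passed the level filter. Psmb10, the immune counterpart of Psmb7, was at 100.1, 128 and 158 CPM. Its log2 ratio was 0.35 (0.30 to 0.41) at 3 h and 0.65 (0.61 to 0.71) at 6 h, so Psmb10 was higher in each treated library. Psmb7 was lower in each in CPM, though its direction at 3 h depended on the scaling. The immune subunits that would go with it were nearly undetected: Psmb8 had 1, 2 and 1 UMIs, at or under the 3 counts taken as the floor in each library, and Psmb9 had 155, 18 and 14 UMIs (1.48, 0.602 and 0.567 CPM). Psma8, the germ cell alpha subunit, was at 11.6, 8.63 and 7.41 CPM, and Psmb11, the thymic subunit, had 27, 8 and 10 UMIs.

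In the base of the regulatory particle, the 6 ATPase genes went both ways. Psmc5 was highest at 3 h, at 237, 296 and 275 CPM, with log2 ratios of 0.32 (0.29 to 0.36) and 0.21 (0.18 to 0.25). Psmc3 was highest at 6 h, at 240, 292 and 335 CPM, with 0.29 (0.25 to 0.32) and 0.48 (0.45 to 0.52). Psmc2 was lowest at both times, at 153, 122 and 105 CPM, with -0.32 (-0.37 to -0.27) and -0.53 (-0.60 to -0.48). ATPases that sit in the same ring of the complex therefore differed in direction at 6 h, with Psmc3 and Psmc1 over 25% higher and Psmc2 and Psmc6 over 20% lower. Their summed level was 1322, 1431 and 1430 CPM.

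The non-ATPase subunits of the base dock substrates. Psmd4, a ubiquitin receptor, was at 383, 428 and 522 CPM, with log2 ratios of 0.16 (0.13 to 0.19) and 0.44 (0.42 to 0.47). Psmd2, the large scaffold that binds ubiquitin shuttles, was at 235, 195 and 241 CPM, at distances of 0.00 and 0.15 from the median gene. All 3 non-ATPase genes of the base had more share at 6 h than at 3 h, by 0.18 to 0.30, against 0.14 for the median gene, with Psmd1 changing sign under median-of-ratios or TMM scaling.

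The lid held the member with the largest gain. Psmd7, which forms a pair with the deubiquitinase Psmd14, was at 413, 724 and 679 CPM. Its log2 ratio was 0.81 (0.78 to 0.83) and then 0.72 (0.69 to 0.74), which put it 1.08 and 0.84 above the median gene. Its partner did not follow. Psmd14 was at 188, 156 and 172 CPM, level with the median gene at 3 h and at a distance of -0.01 from it at 6 h. Psmd12 was lowest in the lid at 3 h, at 323, 238 and 291 CPM with -0.44 (-0.48 to -0.41), and Psmd8 was lowest at 6 h, at 189, 165 and 148 CPM with -0.35 (-0.40 to -0.30). At 3 h Psmd8 lay 0.07 above the median gene. Across the lid, 6 of 8 genes were above the median gene at 3 h and 4 of 8 at 6 h.

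**Figure D2:**
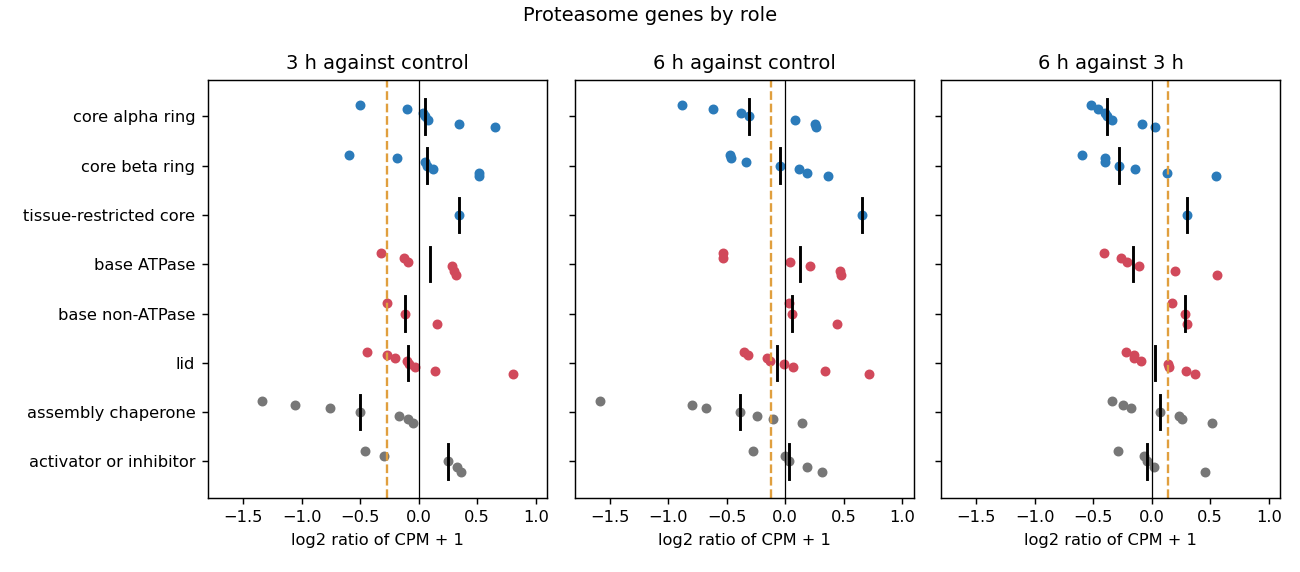
Log2 ratio of CPM + 1 for each of the 44 members (points; blue core, red regulatory particle, grey others) by role, for 3 h against control, 6 h against control and 6 h against 3 h; black bars are group medians and the dashed orange line is the median of all 7884 genes. In the right panel the alpha ring sits left of the dashed line, with a median of -0.38 against 0.14.

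Summed over the 14 constitutive core genes, the level was 4717, 5225 and 4499 CPM. Summed over the 17 regulatory particle genes, it was 4106, 4344 and 4574 CPM. The core was thus highest at 3 h and lowest at 6 h, while the regulatory particle had its highest share at 6 h. The ratio of core to regulatory particle UMIs, which no scaling of a library can alter, was 1.149 (1.144 to 1.154), 1.203 (1.194 to 1.212) and 0.984 (0.976 to 0.992). On the log2 scale it differed from the control by 0.07 at 3 h (normal approximation, 0.05 to 0.08) and by -0.22 at 6 h (-0.24 to -0.21), and 6 h differed from 3 h by -0.29 (-0.31 to -0.27). Gene by gene, 13 of 14 core genes were below the median gene at 6 h against 3 h, beside 9 of 17 regulatory particle genes. Below it were also 76 of 81 cytosolic ribosomal protein genes and 49 of 74 nuclear genes of oxidative phosphorylation.

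The shift at 6 h was found against the base and against the lid, with -0.23 and -0.22. Without the member with most UMIs in each particle, Psmb3 and Psmd7, it was -0.17, and at 3 h the value was 0.13. Adding Adrm1 and Sem1, the subunits whose names do not start with Psm, gave 0.14 at 3 h and -0.14 at 6 h. The 3 h value was the less steady, since it was 0.03 when each cell had equal weight.

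**Figure D3:**
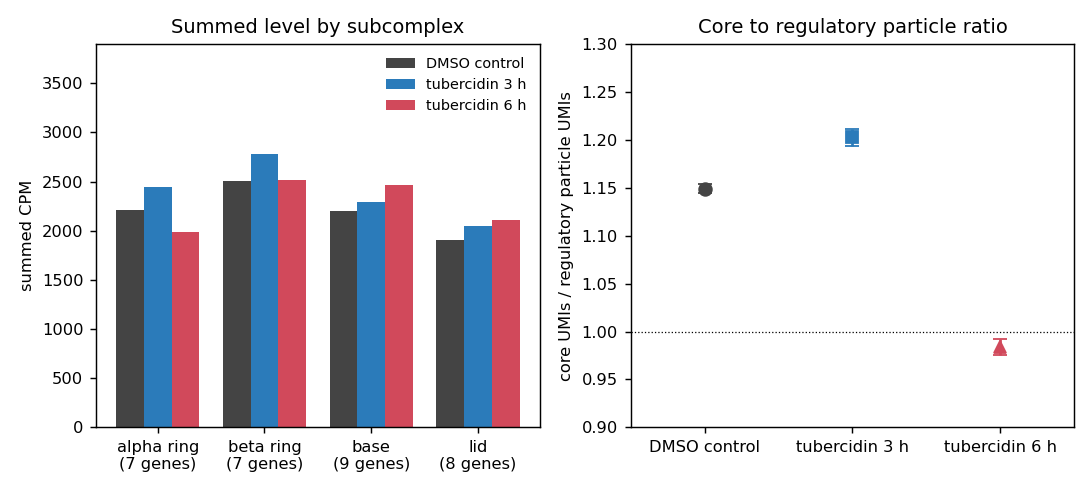
Left, summed CPM of the alpha ring, beta ring, base and lid genes in the 3 libraries (bars from 0); right, ratio of core to regulatory particle UMIs with 95% counting intervals and a dotted line at 1. The ratio stands at 1.149, then 1.203, then 0.984.

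With every cell thinned to 4000 UMIs, which left out 0, 122 and 284 shallower cells, the mean core count was 18.9, 20.6 and 18.1 UMIs. The mean regulatory particle count was 16.3, 17.4 and 18.4 UMIs. Cells with more core than regulatory particle UMIs made up 63.0%, 65.7% and 45.0% of the cells, and unthinned 83.0%, 74.9% and 43.9%. These shares describe the cells of 1 library per group, which are not replicates. The 6 h library was lowest either way, while the control lay below the 3 h library after thinning and above it without. Unthinned cells differed in depth, with mean core counts of 244, 66.0 and 37.9 UMIs. The part of depth in the unthinned order was not tested. The variance of the core count over its mean was 1.39, 1.61 and 1.66, and that of the regulatory particle count 1.20, 1.20 and 1.11.

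**Figure D4:**
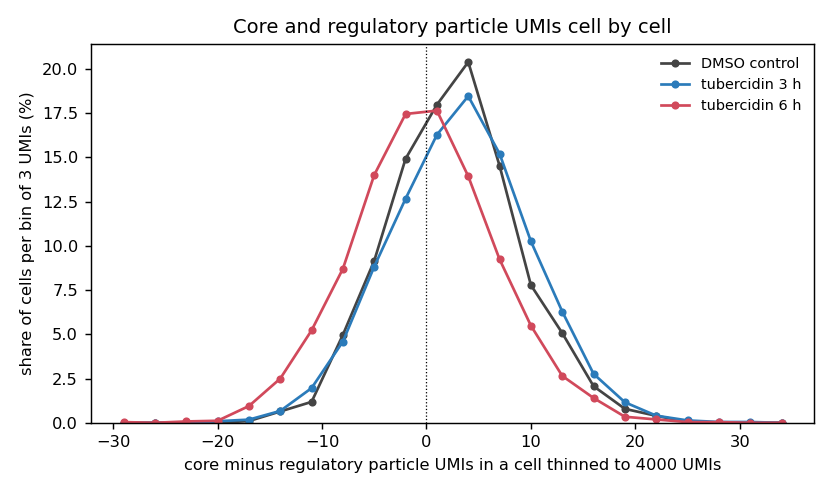
Share of cells (vertical axis, percent per bin of 3 UMIs) by the difference between core and regulatory particle UMIs (horizontal axis) after thinning each cell to 4000 UMIs, with a dotted line at 0. The 6 h curve lies to the left of the others: 45.0% of its cells had more core UMIs, beside 63.0% and 65.7%.

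Depth moved with the 3 h value. With the cells of each library split into 3 bins of equal number by UMIs, the ratio of core to regulatory particle was 1.12 in the lowest bin at 3 h, 1.19 in the middle bin and 1.24 in the highest. In the control it was 1.15, 1.14 and 1.15, so the lowest 3 h bin lay under the control and the others above it. At 6 h the bins were at 1.001, 0.986 and 0.975, all under every control bin. Cells with over 10% mitochondrial UMIs had lower ratios in each library, 0.872, 0.778 and 0.725, but numbered only 26, 124 and 50. Barcodes ranked past 5000 and down to 15000 by UMIs, which hold free RNA and no called cells, had ratios of 1.29, 1.43 and 1.19, each above that of the cells. With free RNA subtracted at 10% of UMIs, the 3 h difference was 0.05; the part of depth in it was not tested.

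**Figure D5:**
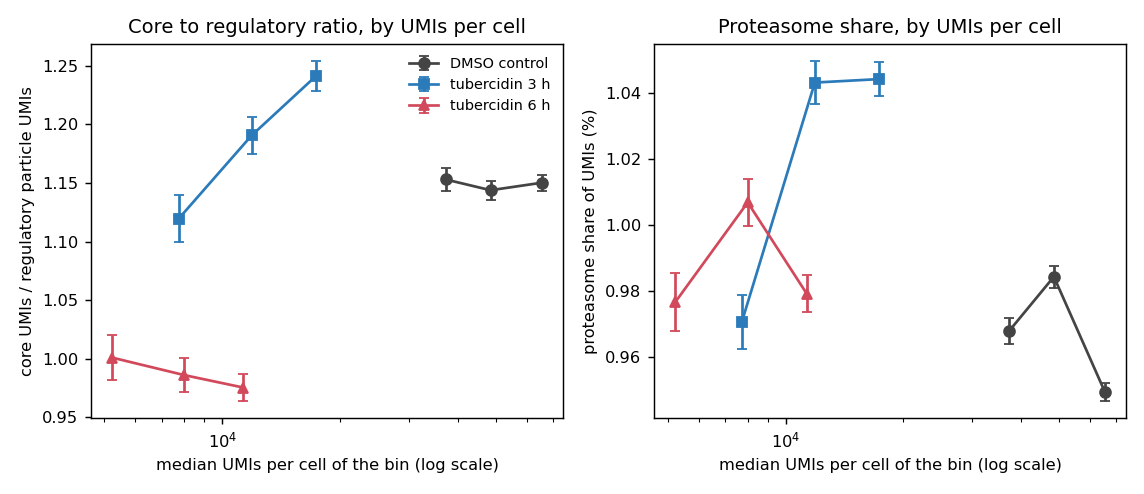
Ratio of core to regulatory particle UMIs (left) and proteasome share of UMIs in percent (right) for the cells of each library split into 3 equal bins by UMIs, at the median UMIs per cell of the bin (horizontal log axis), with 95% counting intervals. At 3 h the ratio runs from 1.12 to 1.24 over the bins, while the 6 h bins stay between 0.975 and 1.001.

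The assembly chaperones, which join subunits and are absent from the finished complex, were low against the control. Their medians were -0.50 at 3 h and -0.39 at 6 h, or -0.23 and -0.27 from the median gene. With a mean of at least 50 CPM, which leaves fewer of them, these distances were -0.10 and -0.48. Their summed level was 378, 274 and 287 CPM. Psmg3, of the chaperone pair that guides alpha ring building with Psmg4, was at 27.2, 10.1 and 8.39 CPM. Its log2 ratio was -1.34 (-1.60 to -1.25) and then -1.59 (-1.91 to -1.49), resting on 2849, 303 and 207 UMIs. Its partner Psmg4 stood apart from it at 79.4, 74.5 and 88.0 CPM, with distances from the median gene of 0.18 and then 0.27.

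The other alpha ring chaperone pair was lower on both sides. Psmg1 was at 75.8, 36.0 and 43.3 CPM, with -1.05 (-1.17 to -0.98) and -0.80 (-0.90 to -0.72). Psmg2 was at 64.9, 45.5 and 40.2 CPM, with -0.50 (-0.60 to -0.43) and -0.68 (-0.79 to -0.59). Of the base chaperones, Psmd9 was at 41.3, 24.1 and 34.9 CPM, Psmd10 at 27.8, 24.7 and 25.9 CPM, and Psmd5 at 61.1, 58.9 and 46.4 CPM. Psmd5 was highest of its role at 3 h, 0.22 above the median gene, and 0.27 below it at 6 h. The ratio of core to chaperone UMIs was 12.5, 19.1 and 15.7.

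The activators cap the core in place of the regulatory particle, and they split. Psme1, of the interferon-linked activator, was at 73.8, 94.9 and 92.0 CPM, with 0.36 (0.30 to 0.43) and 0.31 (0.25 to 0.39). Its partner Psme2 was at 32.9, 26.6 and 27.0 CPM, at distances of -0.02 and -0.16 from the median gene. Psme2 is uncertain, because how reads that fit both it and its copy Psme2b were counted is not given in the sources used here. Psme2b had 75, 20 and 20 UMIs of its own. Psme3, the nuclear activator, was at 43.6, 54.9 and 44.7 CPM, highest at 3 h with 0.33 (0.25 to 0.41). Psme4, an activator prominent in germ cells, was at 157, 114 and 157 CPM, lowest at 3 h with -0.46 (-0.52 to -0.41) and level with the control at 6 h. Psmf1, an inhibitor of the isolated core, was at 24.0, 28.6 and 27.3 CPM. Psmc3ip, matched by its name alone, was at 29.7, 26.8 and 25.4 CPM.

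Exons of Psma4, Psma5, Psmb7, Psmb8, Psmb9, Psmc3, Psmd1, Psmd3, Psmd13 and Psme1 overlap a gene on the opposite strand, and those of Psme2b one on its own strand. Since the sources used here do not give whether strand was counted, the values of these genes may include reads of their neighbours.

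Levels did not sort by the ETS motif of the promoters printed above at 6 h against the control. The regulatory particle genes with it had a median log2 ratio of 0.03 (9 genes) and those without it 0.04 (5 genes), with -0.13 and -0.11 for all tested genes with and without. At 6 h against 3 h the medians were 0.29 and -0.11 within the regulatory particle, beside 0.12 and 0.15 over all tested genes. Core genes with CCAAT had -0.40 in that comparison (6 genes) and those without it 0.03 (5 genes), beside 0.13 and 0.15. The direction was the opposite within the regulatory particle, with 0.21 for genes with CCAAT (4 genes) and 0.02 for those without it (10 genes). A match here is a stretch of letters and no measured site.

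Transcript length also differed between the particles, with a median of 1162.5 bases for core genes, 1819 for regulatory particle genes and 3078 for all genes tested. Over all 7884 genes Pearson's r between log2 length and the log2 ratio was -0.23 at 3 h, -0.01 at 6 h and 0.32 at 6 h against 3 h. Over the 31 core and regulatory subunits it was -0.30, -0.12 and 0.17. These are correlations across genes of the same libraries, and the part of length in the ratio of core to regulatory particle was not tested.

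Among genes that work with the proteasome, 32 of the listed partners were found and 30 passed the level filter. At 3 h, 3 of these were higher by 25% and 11 lower by 20%, against 9.89% and 45.4% of all genes. At 6 h the counts were 4 and 11, against 17.1% and 33.4%. Sem1, a small lid subunit outside the name rule, was at 324, 129 and 101 CPM, with -1.32 (-1.38 to -1.28) and -1.66 (-1.73 to -1.61), lower than any of the 17 regulatory particle members at either time. Adrm1, a ubiquitin receptor of the base, was at 73.6, 60.4 and 58.1 CPM, at distances of -0.01 and -0.21 from the median gene. Pomp, which matures the core, was at 310, 352 and 318 CPM.

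The genes that control proteasome genes differed in direction. Of the 5 past the level filter, 3 lay above the control and 2 below it at 3 h. At 6 h, 2 lay above it and 3 below. Nfe2l1 was at 73.8, 37.3 and 47.2 CPM, with -0.97 (-1.08 to -0.90) and -0.64 (-0.74 to -0.56). Ddi2, the protease that frees NFE2L1 from the membrane, was at 50.7, 74.0 and 131 CPM, with 0.54 (0.47 to 0.62) and 1.36 (1.31 to 1.44). Nfe2l3, a relative of Nfe2l1, was at 9.06, 17.1 and 23.3 CPM, with 0.85 (0.76 to 1.07) and 1.27 (1.21 to 1.52). Ubb, a gene for chains of ubiquitin, was at 1013, 684 and 339 CPM, with -0.57 (-0.59 to -0.54) and -1.58 (-1.61 to -1.55).

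Other large complexes were set beside the particles by their medians. Those of the 81 cytosolic ribosomal protein genes were 0.31 at 3 h, 0.05 at 6 h and -0.27 at 6 h against 3 h, and those of the 74 nuclear genes of oxidative phosphorylation 0.09, 0.14 and -0.01. The core had 0.06, -0.18 and -0.36, and the regulatory particle -0.09, 0.04 and 0.14. Whether these medians differ beyond the spread between cultures was not tested.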

How the data were processed

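Polyadenylated RNA was measured in 3 libraries, 1 for each group. The authors deposited unfiltered UMI counts for each barcode, made with Cell Ranger 7.1.0 on mm10, per the submitters' processing notes; intron and strand settings are not given in the sources used here. A barcode was kept as a cell from 11034, 2961 or 2107 UMIs upwards (0.1 times the 99th percentile among the 3000 deepest barcodes of its library), if it had 500 genes and no more than 20% mitochondrial UMIs. Doublets were kept and no doublet caller was run. The cells held 104892739, 29892000 and 24681924 UMIs.

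Counts were summed over cells, scaled to CPM and compared as log2 ratios with a pseudocount of 1 CPM among genes whose mean reached 10 CPM. Single gene and sum intervals are exact conditional binomial intervals, shares are Clopper-Pearson, all at 95%, and they cover counting error only. With 1 library per group, genes were counted by folds: 25% higher or 20% lower, and 2-fold. The members and lists were chosen with earlier results of these data known. Full values were given for the highest and lowest member of each role at each time, members past 2-fold, the catalytic, immune, chaperone and activator genes, and the 2 highest and lowest partners; Psmb3, Psmc1 and Psmc6 were named after their values were seen. Symbols were found in GENCODE M21 (GRCm38) for all 50 genes. Statistics were tested on simulated data. Alternatives changed the cell cut, mitochondrial limit, doublets, scaling, free RNA, weights, pseudocount, level filter, particle make-up and thinning. TMM factors came from edgeR 4.0.16 in R 4.3.3, all else from scipy 1.17.1, numpy 2.4.6 and pandas 2.3.3 under Python 3.11.15, with plots by matplotlib 3.10.9.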

Additional observations from a re-analysis of the deposited data

Results flagged for a closer look

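The log2 ratio of core to regulatory particle was 0.0662 over the control at 3 h but -0.224 at 6 h, with counting intervals on either side of 0; the difference between the times has only a counting interval and was not tested over cultures. Of single members, 4 core genes did the same with each interval beyond both 0 and the median gene. Psma1 had 0.0792 and then -0.381, Psma3 0.0334 and then -0.309, Psmb1 0.0677 and then -0.332, and Psmb2 0.124 and then -0.472. Relative to the median gene the 3 h values of these 4 were 0.35, 0.31, 0.34 and 0.40. The share of all genes tested that met the same rule was not counted, so this count has no background beside it.

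Outside the called cells, members took 0.964% of UMIs at 3 h and 0.876% at 6 h, beside 0.799% in the control. In the called cells the shares were 1.03% at 3 h, 0.988% at 6 h and 0.965% in the control. Barcodes outside cells thus held proteasome RNA at a lower share than the cells of the same library.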

How the results depend on the processing

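With 1 library per group the limit is that a second culture was not measured; depth limits mainly Psmb8, Psmb9, Psmb11 and Psme2b. No paired analysis was possible because each group has 1 library. Halving the UMI minimum, a mitochondrial limit of 10% and a pseudocount of 0.1 CPM moved no leading value past its interval or count limit. The cause of the moves below was not tested.

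The log2 ratio of the summed members, 0.09 at 3 h, 0.03 at 6 h and -0.06 at 6 h against 3 h, followed the scaling: 0.34, 0.048 and -0.29 with median of ratios, 0.29, 0.0025 and -0.28 with TMM, and -1.94, -2.58 and -0.64 in UMIs per cell, where it was reversed against the control. At 3 h it was 0.10 without mitochondrial genes, 0.10 with a doubled UMI minimum, 0.0855 without cells above 2 times the median UMIs, 0.0858 with free RNA subtracted and 0.063 with equal weight for each cell. At 6 h it was 0.025 with free RNA subtracted. At 6 h against 3 h it was -0.0693 without mitochondrial genes, -0.0688 with a doubled minimum, -0.052 without cells of many UMIs and -0.033 with equal weight.

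The core to regulatory difference of 0.07 at 3 h was 0.088 against the base, 0.041 against the lid, 0.14 with Adrm1 and Sem1, 0.13 without Psmb3 and Psmd7, 0.028 with equal weight and 0.053 with free RNA subtracted. The -0.22 at 6 h was -0.14 with Adrm1 and Sem1 and -0.17 without Psmb3 and Psmd7. The -0.29 at 6 h against 3 h was -0.32 against the base, -0.26 against the lid and -0.25 with equal weight. None of the alternatives run for this summed ratio changed its direction. Among the bins of cells by UMIs, however, the lowest 3 h bin was at 1.12, under the control library at 1.149.

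Members 25% higher and 20% lower, 8 and 8 at 3 h, were 15 and 4 with median of ratios, 14 and 4 with TMM, and 0 and 45 in UMIs per cell, where the level filter also let in Psma8, and the higher ones 4 with equal weight. At 6 h, 7 and 13 became 0 and 45 in UMIs per cell. At 6 h against 3 h, 5 and 10 became 2 and 21 with either median of ratios or TMM, and 0 and 35 in UMIs per cell. Past 2-fold at 3 h, 1 was higher with median of ratios, and 1 was lower with median of ratios, TMM or a mean of at least 50 CPM. In UMIs per cell, 45, 45 and 3 were 2-fold lower in the 3 comparisons, and 0 at 6 h with a mean of at least 50 CPM. Shares of all genes past these folds were not counted under the other scalings. The median gene itself stood at -0.04, -0.11 and -0.08 with median of ratios and at -0.09, -0.15 and -0.07 with TMM. In UMIs per cell it stood at -2.27, -2.67 and -0.41, so the counts on that scale do not set members apart from other genes.

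Distances of medians from the median gene were 0.21 for members, 0.34 for the core and 0.18 for the regulatory particle at 3 h. They were 0.16, 0.23 and 0.14 with equal weight and 0.15, 0.26 and 0.10 with a mean of at least 50 CPM, and the core's was 0.37 with a doubled minimum and 0.28 with free RNA subtracted. At 6 h they were 0.11, -0.06 and 0.16, and became 0.065, -0.12 and 0.10 in UMIs per cell, 0.063, -0.13 and 0.085 with a mean of at least 50 CPM, and -0.10 for the core with free RNA subtracted. At 6 h against 3 h, -0.23 for members and -0.50 for the core were -0.15 and -0.42 with equal weight.

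Other reversed values were the lid's median at 6 h (0.05, then -0.00058 in UMIs per cell and -0.025 with at least 50 CPM), the tissue-restricted median at 6 h against 3 h (0.16, then -0.061 in UMIs per cell and -0.10 with at least 1 CPM, which lets in more genes), the activators' (-0.19, then 0.066 with at least 50 CPM, which leaves fewer) and Psmd8 at 3 h (0.07, then -0.0046 with equal weight). Members' mean share of a thinned cell's UMIs was 1.02% at 3 h and 0.993% at 6 h, and the core's 0.514% and 0.453%. At 2000 UMIs these were 1.01%, 0.986%, 0.509% and 0.449%, with 0.426% for the regulatory particle at 3 h, and unthinned 1.01%, 0.985%, 0.504% and 0.449%.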
